A study of Mus musculus with 12 samples.

Results

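The 7 genes described here encode the enzymes that make and recycle tetrahydrobiopterin, and the protein that controls the first of them. They are Gch1, Gchfr, Pts, Spr, Qdpr, Pcbd1 and Pcbd2, taken by symbol from a table of 24279 genes. All 7 were in the table and passed the filter on low counts, as did 15186 genes in all. The genes were chosen by pathway with measured expression values of these same libraries known, and which of the group differences guided the choice is not given. All differences between groups and their adjusted p-values are therefore a description of these 12 libraries and are not independent evidence about the pathway.

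RNA with a poly(A) tail was sequenced from primary fibroblasts of mouse embryos at embryonic day 12.5, in 4 groups of 3 libraries. They were Rsg1L3P/L3P mutant cells under fortified folic acid, wild type cells under fortified folic acid, mutant cells under moderate folic acid and wild type cells under moderate folic acid. Fortified meant a diet of 10 ppm folic acid for F3 mice and culture medium with 3600 ng/mL, whereas moderate meant 2 ppm in the diet and 225 ng/mL in the medium. Since the diet and the medium both differed, the effects of each cannot be told apart. The protein made from Rsg1 resembles small GTPases and belongs to a complex that acts in cilium assembly. The mutant cells carried the L3P allele on both copies, and its effect on the Rsg1 transcript is not given in the labels. The labels do not say whether libraries came from separate embryos, so p-values measure the spread between libraries, which may be technical at least in part.

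Tetrahydrobiopterin is a cofactor of the hydroxylases of aromatic amino acids, of the nitric oxide synthases and of the alkylglycerol monooxygenase. GTP cyclohydrolase, the product of Gch1, opens the ring of GTP in the first and rate-limiting step, and Pts and Spr carry the product on to tetrahydrobiopterin. After use by the hydroxylases the cofactor is a carbinolamine, which the Pcbd proteins dehydrate and Qdpr reduces back. In many cell types Gch1 transcription is induced by inflammatory cytokines.

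The libraries held 39339190 to 48475963 counts. Rsg1 had 19 to 54 counts per library, and its level was not used to check the genotype. All 10 fibroblast markers were present, with a summed level of 8600 to 10700 TPM (transcripts per 1000000, a level per length) in fortified mutant, 13600 to 19200 in fortified wild type, 11400 to 12100 in moderate mutant and 6350 to 12600 in moderate wild type libraries. Fortified mutant 2 and 3 and moderate wild type 1 stood apart on the first principal component, which held 30.2% of the variance of log2 CPM. These 3 scored 48.1 to 68, moderate wild type 2 and 3 lay as far out on the other side at -68.6 and -53.7, and the other 7 libraries scored -18.9 to 4.74. The same 3 libraries had skeletal muscle marker sums of 3340, 2530 and 3630 TPM, against 563 to 2750 TPM over all other libraries, ranges that overlap. Their neuron marker sums were 200, 135 and 280 TPM, against 65.2 to 108 TPM over all other libraries, with no overlap. Xist RNA was found in all 6 mutant libraries and in 2 of the 6 wild type ones, so genotype and sex were largely confounded. Y-linked RNA was found in moderate wild type 2 and 3 and in fortified wild type 3. Fortified wild type 2 had neither, so its sex was not determined. Moderate wild type 1 and fortified wild type 1 had Xist and no Y-linked RNA, so neither wild type group came from 1 embryo alone. For the mutant groups this was not determined. Fewer cells of a type and less RNA per cell cannot be told apart in such bulk samples.

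Gch1 and Pts are the 2 members whose differences between folic acid levels passed the test below, which 17.8% of all genes passed, and the 250 bases before their RefSeq transcription starts (GRCm38.p6, minus strand in both cases) are shown for that reason. All 7 members had an entry among 32851 promoters. Capitals mark matches on either strand to the CCAAT box, the GC box GGGCGG, the TATA box TATAAA, the arm TGACG of a cAMP response element and the stress-response factor site TGATGNAA. The Gch1 window is chr14:47189414-47189663 and the Pts window is chr9:50528657-50528906.
Gch1: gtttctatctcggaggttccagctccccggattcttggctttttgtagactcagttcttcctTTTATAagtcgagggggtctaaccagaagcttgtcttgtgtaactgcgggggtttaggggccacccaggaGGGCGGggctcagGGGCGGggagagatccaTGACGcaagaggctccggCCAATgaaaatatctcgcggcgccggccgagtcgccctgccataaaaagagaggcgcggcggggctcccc
Pts: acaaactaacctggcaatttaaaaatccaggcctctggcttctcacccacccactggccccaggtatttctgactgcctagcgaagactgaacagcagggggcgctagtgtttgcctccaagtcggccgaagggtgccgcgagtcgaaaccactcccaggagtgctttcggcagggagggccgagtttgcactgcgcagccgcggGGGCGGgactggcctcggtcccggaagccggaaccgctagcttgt

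The Gch1 window held CCAAT with its first letter 70 bases before the start, TGACG at 88 bases, and GGGCGG at 118 and 105 bases. It also held TATAAA on the opposite strand at 188 bases, far from the usual place of a TATA box. Only these exact letters were searched, so the similar stretch CATAAAAA, much nearer the start on the gene's own strand, is not marked. The Pts window held 1 match, GGGCGG at 45 bases, and the RefSeq start lies 68 bases from the gene start in GENCODE M21. In the rat, a cAMP response element next to a CCAAT box is known to drive Gch1 transcription. Of all promoter windows of this length, 33.8% held CCAAT, 17.8% TGACG, 32.7% GGGCGG, 12.4% TATAAA and 3.45% TGATGNAA, so each match is common and is a description of letters only. The full cAMP response element TGACGTCA, found in 1.55% of windows, and the E box CANNTG, found in 66.2%, were searched on both strands and had no match in either window.

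Gch1, the gene of the rate-limiting enzyme, was the member with the widest range, and it was lower under fortified folic acid. Levels are given as CPM (counts per 1000000 after scaling, comparable between libraries for 1 gene). Fortified mutant libraries had 3.65, 2.27 and 1.80 CPM and fortified wild type libraries had 2.225, 2.86 and 2.58 CPM. Moderate mutant libraries had 16.2, 26.5 and 54.8 CPM, and moderate wild type libraries had 2.14, 41.1 and 58.7 CPM. All 6 fortified libraries were low and close together, 5 moderate libraries were high and unequal, and moderate wild type 1 lay inside the fortified range. The means were 2.56 ± 0.640 CPM under fortified and 33.2 ± 22.2 CPM under moderate folic acid (SD, n = 6 each). Behind these values stood 79 to 2557 counts, so counting error was at most 11.3% and small beside the spread between the moderate libraries. It was not small beside the spread of the fortified wild type libraries, at 2.55 ± 0.316 CPM (SD, n = 3).

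Averaged over both genotypes, Gch1 was 12.9-fold lower under fortified folic acid, a log2 fold change of -3.69 (SE 0.62) with an adjusted p of 0.00637 (edgeR quasi-likelihood test, adjusted by Benjamini and Hochberg over all genes tested). In mutant cells alone it was -3.66 (SE 0.88), with an adjusted p of 0.0365 in edgeR, and the fortified group lay wholly below the moderate one, as in 18.5% of all genes tested. In wild type cells the value was -3.73 (SE 0.88), with an adjusted p of 0.0849 in edgeR that did not pass. The interaction of genotype and folic acid for Gch1 was 0.08 (SE 1.13, edgeR adjusted p = 0.991), so no difference in response between genotypes was shown. On the log2(TPM + 1) scale the differences were smaller, -2.86 in the average (limma adjusted p = 0.0053) and -2.48 in wild type cells (limma adjusted p = 0.121). The added 1 by itself shrinks differences on this scale, since Gch1 had only 1.28 to 2.45 TPM in the fortified libraries. These comparisons share libraries: both folic acid contrasts enter the average.

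The call in wild type cells turned on moderate wild type 1. Without this library the log2 fold change in wild type cells was -4.29 with an edgeR adjusted p of 0.00389, and the average over genotypes was -3.97 with 0.000177. The 5 other moderate libraries averaged 39.4 ± 18.1 CPM (SD, n = 5), and the lowest of them was 4.44-fold above the highest fortified library. The call in mutant cells ended without any single library of the fortified mutant, fortified wild type or moderate mutant groups, with edgeR adjusted p from 0.0513 to 0.119. With the replicate number as a block it was 0.0651, whereas the average over genotypes passed without each of the 12 libraries in turn.

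The low Gch1 value of moderate wild type 1 was shared by many genes. In 1311 genes, 8.63% of those tested, the 5 other moderate libraries all lay above the 6 fortified ones. In 627 of these, or 47.8%, moderate wild type 1 fell within the fortified range, and Gch1 was among them. In the opposite direction there were 943 such genes, of which moderate wild type 1 fell within the fortified range in 417, or 44.2%. These counts were chosen after the Gch1 values were seen, and why this library differs was not tested. It was the only moderate wild type library with Xist RNA, which all 3 moderate mutant libraries had too, and the part of sex in the Gch1 values was not tested.

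**Figure D1:**
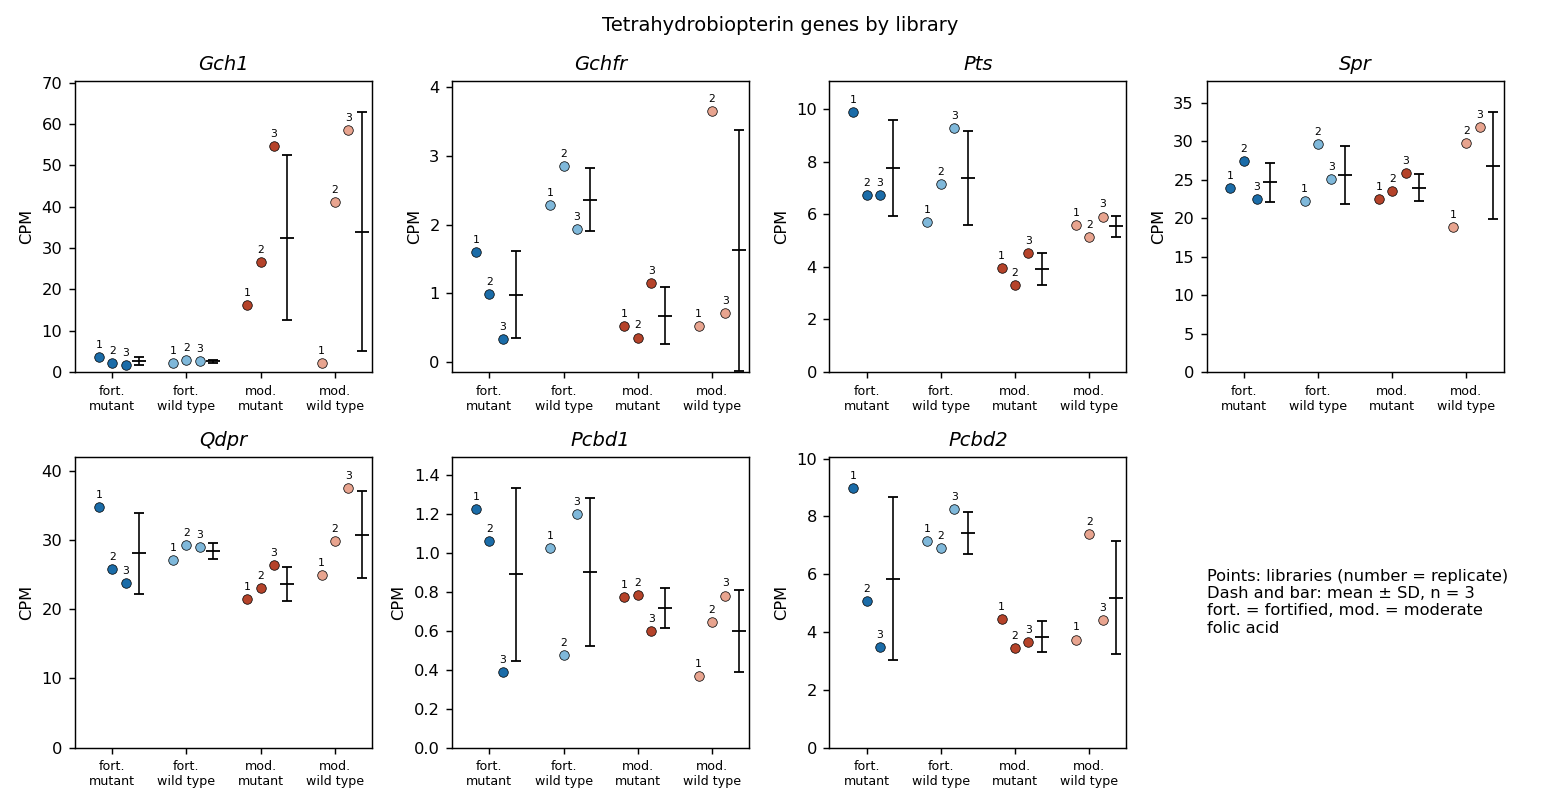
CPM of each of the 7 genes (vertical axis, linear) in the 12 libraries, as points numbered by replicate, with the mean and SD of the 3 libraries of a group beside them. Gch1 lies at 1.80 to 3.65 CPM in the fortified libraries and at 2.14 to 58.7 CPM in the moderate ones, where wild type 1 is the low point.

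Macrophages make Gch1 RNA when activated, and their markers varied between libraries. The 7 macrophage markers summed to 64.0, 31.6 and 42.2 TPM in fortified mutant and 212, 125 and 62.2 TPM in fortified wild type libraries. They summed to 60.7, 181 and 40.6 TPM in moderate mutant and 40.1, 269 and 281 TPM in moderate wild type libraries. None of the markers was at 0 in any library, and the part of macrophages in the Gch1 difference was not tested.

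Genes induced by the same cytokines were followed as a list of 12, of which 9 were tested. In the average over genotypes 1 was higher and 1 was lower under fortified folic acid, where 17.8% of all genes passed in either direction. Irf1, an interferon-induced transcription factor, was higher by a log2 fold change of 0.78 (SE 0.18, edgeR adjusted p = 0.015). Gbp2, an interferon-induced GTPase, had a log2 fold change of -1.21 (SE 0.38, edgeR adjusted p = 0.0462). The list's median was 0.50 on the log2 scale, beside 0.000359 over all genes, and none of the 9 passed within either genotype.

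Gchfr encodes the feedback regulator that binds GTP cyclohydrolase and lets tetrahydrobiopterin inhibit it and phenylalanine stimulate it. It had 1.60, 0.993 and 0.342 CPM in fortified mutant and 2.29, 2.86 and 1.94 CPM in fortified wild type libraries. Moderate mutant libraries had 0.520, 0.358 and 1.15 CPM, and moderate wild type libraries had 0.519, 3.65 and 0.711 CPM. Each mutant value under fortified folic acid lay below each wild type value, while under moderate folic acid wild type 1 and 3 were within the range of the mutant libraries. Such a separation, with mutant lower, was found in 5.62% of all genes tested under fortified folic acid.

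Mutant against wild type, the Gchfr log2 fold change was -1.27 (SE 0.76, edgeR adjusted p = 0.939) under fortified and -1.26 (SE 0.77, edgeR adjusted p = 0.72) under moderate folic acid. Neither passed. Averaged over folic acid levels it was -1.27 (SE 0.54), with a raw p of 0.0381 and an adjusted p of 0.986 in edgeR. The value under moderate folic acid rested on wild type 2, and without that library it was 0.13. Fortified against moderate, Gchfr had a log2 fold change of 0.54 in mutant cells and 0.54 in wild type cells, and neither passed (edgeR adjusted p = 0.706 and 0.716). These values were unstable: the one in mutant cells was -0.01 without fortified mutant 1 and 1.15 without moderate mutant 3, and, of the moderate libraries, leaving out wild type 1 gave 0.12 in wild type cells and leaving out wild type 2 gave 1.94. With 15 to 142 counts per library, counting error reached 25.8%.

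Since TPM is per length, the levels of regulator and enzyme can be set side by side. The ratio of Gch1 to Gchfr TPM was 0.403, 0.407 and 0.930 in fortified mutant and 0.172, 0.174 and 0.235 in fortified wild type libraries. It was 5.5, 13.2 and 8.41 in moderate mutant and 0.730, 1.95 and 14.5 in moderate wild type libraries. The ratio was below 1 in all 6 fortified libraries and in moderate wild type 1, and above 1 in the 5 other moderate libraries. Fortified mutant 3 and moderate wild type 1 had only 15 and 24 counts of Gchfr, so which transcript was higher there was not resolved.

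Pts, the synthase of the middle step, was higher under fortified folic acid. It had 9.89, 6.73 and 6.72 CPM in fortified mutant and 5.72, 7.16 and 9.30 CPM in fortified wild type libraries. Moderate mutant libraries had 3.955, 3.31 and 4.53 CPM, and moderate wild type libraries had 5.58, 5.14 and 5.92 CPM. In mutant cells the fortified group lay wholly above the moderate one, as in 19.6% of all genes tested, while in wild type cells fortified 1 lay within the moderate range. The means were 7.59 ± 1.64 CPM under fortified and 4.74 ± 0.997 CPM under moderate folic acid (SD, n = 6 each).

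The Pts log2 fold change was 0.70 (SE 0.19, edgeR adjusted p = 0.0268) in the average over genotypes, a 1.62-fold difference. In mutant cells it was 0.98 (SE 0.27, edgeR adjusted p = 0.048), and in wild type cells 0.41 (SE 0.26, edgeR adjusted p = 0.402), which did not pass. The interaction was 0.57 (SE 0.37, edgeR adjusted p = 0.723), so the genotypes were not shown to differ. Under moderate folic acid the mutant libraries all lay below the wild type ones, a separation with mutant lower found in 6.68% of genes, and the log2 fold change of -0.50 (SE 0.27, edgeR adjusted p = 0.672) did not pass.

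The Pts calls stood close to the threshold. In mutant cells the call held without moderate wild type 1 or 3 and ended without each of the other 10 libraries, with edgeR adjusted p from 0.0504 to 0.177. The average over genotypes lost its call without moderate mutant 1, moderate mutant 2, fortified mutant 1 or fortified wild type 3, with edgeR adjusted p from 0.055 to 0.074. On the log2(TPM + 1) scale it was 0.42 with a limma adjusted p of 0.0582.

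Spr, sepiapterin reductase, which completes the synthesis, had a narrow range in CPM. It had 24.0, 27.4 and 22.55 CPM in fortified mutant and 22.2, 29.6 and 25.05 CPM in fortified wild type libraries. Moderate mutant libraries had 22.5, 23.5 and 25.9 CPM, and moderate wild type libraries had 18.9, 29.8 and 31.8 CPM. In CPM the groups overlapped in all comparisons, and the highest library was 1.69-fold above the lowest. In TPM, Spr had 39.4 to 43.5 in fortified mutant libraries, against 48.7 to 51.5 in moderate mutant libraries. The ratio of counts to TPM, relative to the library median over tested genes, was 0.391 to 0.395 for Spr in all 12 libraries. Its TPM therefore differed from its CPM almost only by a factor common to a whole library. The share of all genes separated in this way in TPM was not counted, so the separation is not shown to be particular to Spr. The difference of -0.29 on the log2(TPM + 1) scale did not pass (limma adjusted p = 0.194). Fortified against moderate, the average log2 fold change was -0.01 (SE 0.14, edgeR adjusted p = 0.964).

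Qdpr, dihydropteridine reductase of the recycling arm, had 34.7, 25.85 and 23.7 CPM in fortified mutant and 27.1, 29.2 and 29.0 CPM in fortified wild type libraries. Moderate mutant libraries had 21.5, 23.1 and 26.3 CPM, and moderate wild type libraries had 24.9, 29.85 and 37.5 CPM. In CPM the highest library was 1.74-fold above the lowest, and groups overlapped in all comparisons. In TPM, fortified wild type libraries had 40.02 to 43.7, against 43.9 to 52.3 in moderate wild type libraries. As for Spr, TPM differed from CPM almost only by a library-wide factor, with a ratio of counts to TPM of 0.454 to 0.458 relative to the library median. The share of all genes separated in TPM was not counted, so the separation is not shown to be particular to Qdpr. The average log2 fold change for fortified against moderate was 0.07 (SE 0.13, edgeR adjusted p = 0.762), and it was -0.15 on the log2(TPM + 1) scale. The annotation places an antisense gene, Gm42413, across 15750 bases of Qdpr, taken over whole gene spans with introns. Overlap of exons was not measured and the strand setting of the counting is not given. Whether the overlapping genes share reads is therefore not known.

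Pcbd1 and Pcbd2 encode paralogous carbinolamine dehydratases, and both proteins can also bind a hepatocyte nuclear factor as a dimerization cofactor. Pcbd1 had 1.22, 1.06 and 0.387 CPM in fortified mutant and 1.025, 0.476 and 1.20 CPM in fortified wild type libraries. It had 0.770, 0.783 and 0.600 CPM in moderate mutant and 0.368, 0.643 and 0.780 CPM in moderate wild type libraries. Pcbd1 rested on 17 to 58 counts per library, with a counting error of up to 24.3%, and its groups overlapped throughout.

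Pcbd2 had 8.98, 5.07 and 3.485 CPM in fortified mutant and 7.13, 6.89 and 8.25 CPM in fortified wild type libraries. Moderate mutant libraries had 4.43, 3.44 and 3.65 CPM, and moderate wild type libraries had 3.74, 7.40 and 4.43 CPM. High values stood in fortified mutant 1, moderate wild type 2 and all fortified wild type libraries. The fortified against moderate average was 0.56 on the log2 scale (SE 0.26, edgeR adjusted p = 0.147) for Pcbd2 and 0.45 (SE 0.37, edgeR adjusted p = 0.417) for Pcbd1. Neither passed, although Pcbd2 did without the 3 libraries that stood apart (0.76, edgeR adjusted p = 0.0332). An antisense gene shares 1695 bases with Pcbd2, with the same limit as for Qdpr.

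Over the whole set, 2 of 7 members passed in the average over genotypes, Gch1 lower and Pts higher, beside 17.8% of all genes tested (8.86% lower and 8.9% higher). The same 2 passed in mutant cells, beside 6.93% of all genes (2.74% lower and 4.19% higher), and 0 of 7 passed in wild type cells, beside 0.0263%. At an unadjusted p under 0.05, 2984 genes passed in wild type cells, Gch1 among them with a p of 0.00122. The members' median log2 fold change was 0.31 in mutant cells and 0.41 in wild type cells, beside 0.04 and -0.04 over all genes. Gch1 itself lay on the other side of 0, at -3.66 and -3.73.

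**Figure D2:**
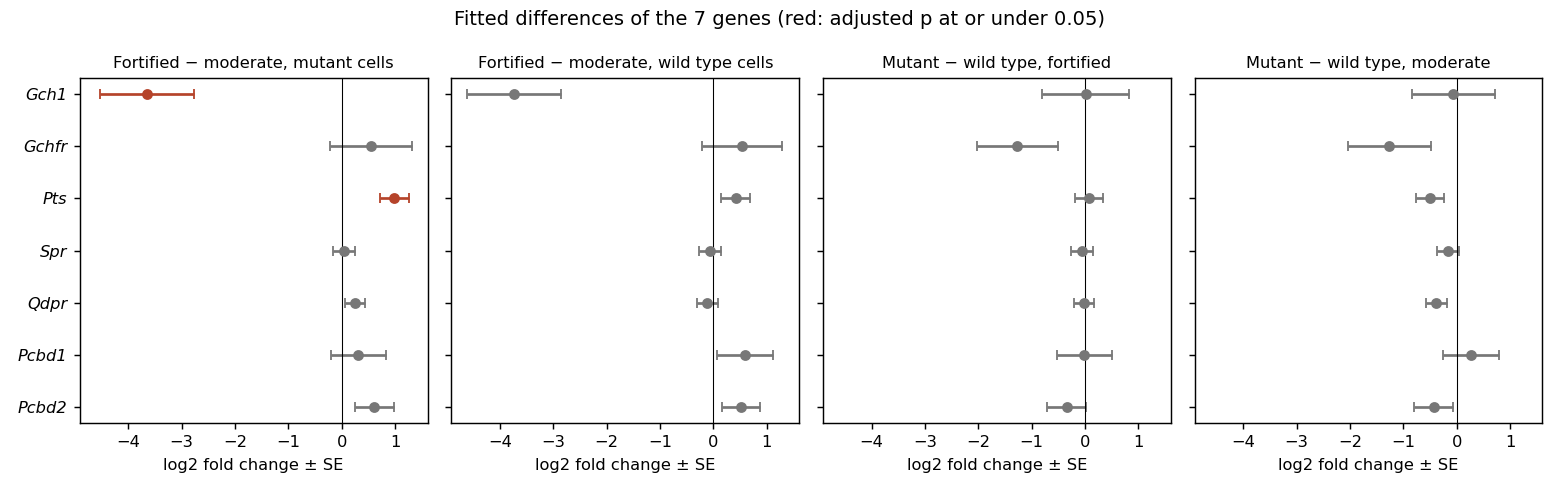
Fitted log2 fold change of each of the 7 genes (horizontal axis, with its SE as a bar) for the folic acid and genotype comparisons. Gch1 lies near -3.7 in the folic acid comparisons of both genotypes, and the other genes lie between -0.11 and 0.98 there.

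Mutant against wild type, 0 of 7 members passed at either folic acid level, beside 0% of all genes in edgeR. At an unadjusted p under 0.05, 500 genes passed under fortified and 1195 under moderate folic acid, and DESeq2 called 7 and 42 genes, with 0 members among them. Gch1 had a genotype log2 fold change of 0.01 (SE 0.82) under fortified and -0.06 (SE 0.78) under moderate folic acid, errors that leave room for large differences. Spr was measured more closely, at -0.06 (SE 0.20) under fortified and -0.16 (SE 0.20) under moderate folic acid. For the interaction 0 of 7 members and 0% of all genes passed in edgeR, with 1015 genes at an unadjusted p under 0.05 and 5 called by DESeq2.

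Per length, Spr and Qdpr were the most abundant members. Spr was highest in 8 libraries and Qdpr in 4, with 38.5 to 58.0 TPM for Spr and 35.4 to 52.3 TPM for Qdpr, ranges that overlap. Pcbd2 followed with 17.1 to 41.6 TPM and Pts with 8.60 to 19.9 TPM. Gchfr had 1.37 to 16.6 TPM, and Pcbd1 had 1.096 to 3.28 TPM.

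Gch1 changed its place in this order. Among the 7 members by TPM it ranked 7, 7 and 6 in fortified mutant and 7, 6 and 7 in fortified wild type libraries. It ranked 4, 3 and 3 in moderate mutant and 6, 4 and 3 in moderate wild type libraries. Its share of the summed TPM of the members was 1.16 to 1.51% in fortified mutant and 1.13 to 1.26% in fortified wild type libraries. The share was 9.78 to 24.7% in moderate mutant and 1.45 to 21.5% in moderate wild type libraries, with wild type 1 at the low end.

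**Figure D3:**
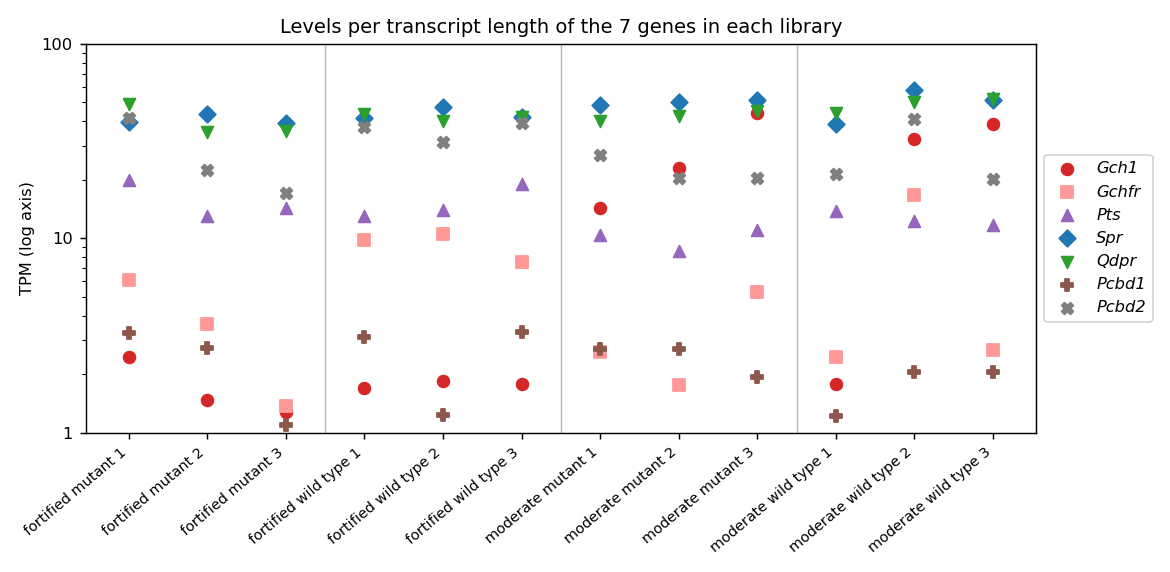
TPM of the 7 genes in each library on a log axis, with the groups side by side. Spr and Qdpr stay at 35.4 to 58.0 TPM in all 12 libraries, while Gch1 spans 1.28 to 44.3 TPM.

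The genes most like Gch1 across the 12 libraries, among 10569 searched, were Ascc2, Wars and Smg8, with Pearson correlations of log2 CPM of 0.987, 0.984 and 0.983. Ascc2 encodes a subunit of a complex that acts on stalled ribosomes, Wars the cytosolic tryptophanyl-tRNA synthetase and Smg8 a regulator of the kinase of nonsense-mediated decay. Their levels showed the same low library. Wars had 68.3 to 90.3 CPM in the fortified libraries, 82.6 CPM in moderate wild type 1 and 249 to 324 CPM in the 5 other moderate libraries. Ascc2 had 33.9 to 47.3 CPM in the fortified libraries, 36.2 CPM in moderate wild type 1 and 94.7 to 154 CPM in the others. Smg8 had a far narrower range, 28.7 to 30.8 CPM under fortified folic acid, 30.0 CPM in moderate wild type 1 and 38.9 to 44.3 CPM in the others. The points are the same 12 libraries for every gene, so these correlations hold the folic acid difference and the low library together.

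**Figure D4:**
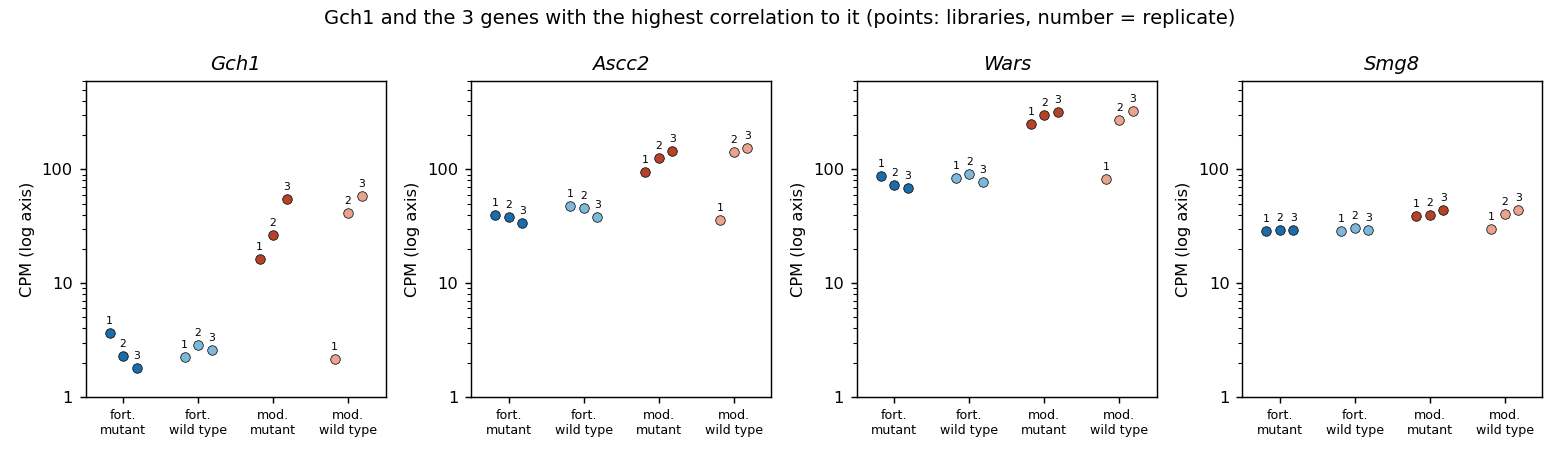
CPM on a shared log axis for Gch1, Ascc2, Wars and Smg8 in the 12 libraries, numbered by replicate. In all 4 genes moderate wild type 1 lies with the fortified libraries, below the 5 other moderate ones.

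For the other members, the closest genes were Snx15, a sorting nexin, for Gchfr (0.941), Haus1, a subunit of the augmin complex of the spindle, for Pts (0.979), and Dctn6, a dynactin subunit, for Spr (0.968). They were Dctn5, another dynactin subunit, for Qdpr (0.930), Dcaf12 for Pcbd1 (0.873) and Arl2, a small GTPase of tubulin folding, for Pcbd2 (0.959). Among the members themselves 18 of 21 pairs had a positive correlation, over the same 12 libraries. Gchfr and Pcbd2 were closest, at a Pearson r of 0.851 and a Spearman rho of 0.797. Gch1 and Pts had the lowest value, -0.61 by Pearson and -0.378 by Spearman, and Gch1 and its regulator Gchfr had -0.0579 and 0.196.

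Most enzymes that use tetrahydrobiopterin had few counts, as 3 of 8 passed the filter on low counts and 0 passed a test in any comparison. Nos2, the cytokine-induced nitric oxide synthase, had 0 to 2 counts per library. Tph2, Nos3 and Agmo had at most 12, 20 and 14 counts. Tph1, the tryptophan hydroxylase of cells outside the brain, was the most abundant, with 20 to 366 counts and 0.180 to 8.57 TPM. Th, tyrosine hydroxylase, reached 1.25 TPM and Nos1, the neuronal nitric oxide synthase, 0.258 TPM.

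GTP is the substrate of GTP cyclohydrolase, and all 15 genes of a list on GTP and purine metabolism were tested. Not all of them, Gda and Pnp for example, act in making GTP. In the average over genotypes 3 were higher and 2 were lower under fortified folic acid, beside 8.9% and 8.86% of all genes tested, with a list median of 0.02 on the log2 scale. Paics, an enzyme of purine synthesis, rose by 0.47 (edgeR adjusted p = 0.0363), Pnp, the purine nucleoside phosphorylase, by 0.62 (0.0184) and Nme2, a nucleoside diphosphate kinase, by 0.56 (0.0284). Ppat, the first enzyme of purine synthesis, fell by 0.67 (edgeR adjusted p = 0.0468) and Atic, its last enzyme, which uses a folate cofactor, fell by 0.53 (0.0467). In mutant cells the same 3 genes were higher, Paics at 0.89, Pnp at 0.89 and Nme2 at 0.92 (edgeR adjusted p of 0.0276, 0.036 and 0.0362), beside 6.93% of all genes. In wild type cells 0 of 15 passed, beside 0.0263% of all genes. Nme2 and its close paralog Nme1 can share reads, so the Nme2 counts are uncertain. Of 8 genes that act beside the pathway 6 were tested and 0 passed in any comparison. Of the 4 genes of molybdenum cofactor synthesis, the other route from GTP to a pterin, 0 passed in any comparison.

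On mm10, with GENCODE M21 annotation, all 7 members are protein-coding genes. Gch1 (ENSMUSG00000037580.10) lies at chr14:47153895-47189413 on the minus strand, and it overlaps the processed pseudogenes Gm49134 and Gm18811, the second of them on the same strand over 664 bases. Pts (ENSMUSG00000032067.6) lies at chr9:50521617-50528724 on the minus strand. The others lie on chromosomes 2 (Gchfr), 6 (Spr), 5 (Qdpr), 10 (Pcbd1) and 13 (Pcbd2), so no pair of members shares a chromosome.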

How the data were processed

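The authors deposited estimated (expected) counts per gene in 1 table and TPM in another, both named for salmon. Its version and annotation: not given in the sources used here. The genome is mm10, per the submitters' processing notes, and libraries came from polyadenylated RNA with a Tecan Universal Plus kit, per the labels' protocols. Column names match titles by genotype and number, and their letters B and P are not explained, so only the column numbers in the sample descriptions tie a column to its folic acid level.

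Expected counts, as deposited, were rounded. filterByExpr (minimum count 10, minimum total 15) kept 15186 of 24279 genes, TMM factors ran from 0.91 to 1.08, and edgeR 4.0.16 in R 4.3.3 fitted 1 mean per group over 12 libraries (glmQLFit, glmQLFTest). P-values were adjusted over all genes tested by the method of Benjamini and Hochberg, with a threshold of 0.05, and the common biological coefficient of variation was 0.332. Each SE was back-calculated as the size of the unshrunken log2 fold change over the square root of the test's F statistic. CPM are scaled by TMM, with a prior count of 2 on the log2 scale. Deposited TPM served for levels between genes and for limma 3.58.1 as an alternative, and DESeq2 1.42.0 was another. The fits were tested on simulated data.

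All 7 members are named with every library's value. Of the related lists, genes were named that passed a test (up to 4 a list and comparison) or that use the cofactor; some results are not reported here. Likeness took the 3 genes of highest correlation with a mean of at least 5 CPM. The members and lists were chosen with earlier results of these data known. No 2 libraries correlated above 0.9897, and none was counted as a repeat of another. Counting errors cover counting only, whereas each SD printed after a mean covers the spread between libraries.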

Additional observations from a re-analysis of the deposited data

How the results depend on the processing

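Of 959 values of the members recomputed under alternatives, 930 kept within 1 SD of the library spread, 29 moved further and 0 calls changed direction. Taken for each gene on its own, this SD ran from 0.221 for Qdpr to 1.4 for Gch1 on the log2 scale. A shift of Gch1 in wild type cells from -3.73 to -2.48 therefore counted as kept. Direction was followed only for differences that passed in the main fit. Other differences could change sign. Gchfr, mutant against wild type under moderate folic acid, went from -1.26 to as high as 0.13 without 1 library. For fortified against moderate folic acid in mutant cells, 2 members passed, against 1 with no low-count filter, 1 with limma on log2(TPM + 1), 1 with limma on log2(TPM + 0.1), and 0 to 2 without 1 library. In wild type cells 0 passed, against 1 (Gch1) with DESeq2, 1 without the 3 libraries that stood apart, and 0 to 1 without 1 library. In the average over genotypes 2 passed, against 1 with either limma scale, 3 without the 3 libraries that stood apart (Pcbd2 added) and 1 to 2 without 1 library. In the genotype comparisons and the interaction 0 members passed under all alternatives. The cause of these changes was not tested.

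Replicate numbers did not pair the samples: same-numbered libraries of different groups correlated, in their deviations from group means, from -0.477 to 0.244, and 4 of 18 pairs were above 0.1. With the replicate number as a block, 0 members passed in mutant cells (Gch1 0.0651, Pts 0.0694 as adjusted p in edgeR) and 559 genes in all, while Gch1 and Pts kept their calls in the average.

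Counts over all genes varied widely. In mutant cells 1053 genes passed, against 2345 with DESeq2, 2814 and 2805 with limma on log2(TPM + 1) and log2(TPM + 0.1), 2122 with only the groups compared, and 0 to 2073 without 1 library. In wild type cells 4 passed, against 1155 with DESeq2, 1298 without the 3 libraries, 80 with no filter, 65 with the block, 13 and 1 with limma on log2(TPM + 0.1) and log2(TPM + 1), 0 with only the groups compared, and 1 to 1012 without 1 library. In the average 2696 passed, against 1411 to 4025 without 1 library. For genotype averaged over folic acid 0 passed in edgeR and 19 in DESeq2. Gchfr, Pcbd1 and the cofactor-using enzymes are limited by depth, with 15 to 142 and 17 to 58 counts for Gchfr and Pcbd1.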
